A study of Mus musculus with 13 samples.

Results

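The replication-dependent histone genes of the mouse were followed through an RNA pull-down with the RNA-binding part of the protein dAKAP1. Members were all genes of the deposited count table whose symbol begins with Hist1h, Hist2h, Hist3h or Hist4h followed by H1, H2A, H2B, H3 or H4 as a class, or carries the newer name of such a gene. This gave 69 genes of the 27071 in the table. They comprised 6 linker histone H1 genes, 20 H2A, 18 H2B, 12 H3 and 13 H4 genes. By symbol, 55 belonged to the Hist1 cluster on chromosome 13, 10 to Hist2 on chromosome 3 and 3 to Hist3 on chromosome 11. Hist4h4 stood alone on chromosome 6. RefSeq places Hist1h2al, as H2af-ps2, at 51200084 on chromosome 13, apart from the other mapped Hist1 members, and Hist1h2ap had no coordinates here. The RefSeq names of Hist1h2al and Hist3h2bb-ps (H2bu1-ps) carry the suffix of pseudogenes. The rule for the 69 members goes by symbol and uses no measured value, though earlier results of these data were known when it was set.

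These genes supply most of the histone protein that packs newly copied DNA, and their transcripts accumulate in S phase. H2A, H2B, H3 and H4 form the core of the nucleosome, while H1 binds the DNA between nucleosomes. Their messenger RNAs are short, lack introns and, alone among animal messenger RNAs, usually end in a conserved stem-loop bound by SLBP and not in a poly(A) tail. The genes lie in clusters, many H2A and H2B genes are arranged head to head, and many members of a class encode the same or nearly the same protein.

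MA-10, a steroid-making cell line from a Leydig cell tumour of the mouse, gave the RNA, which was mixed with purified protein, and bound RNA was recovered with an antibody to maltose-binding protein (MBP), the tag. dAKAP1 (AKAP1) is an anchoring protein of protein kinase A at the outer mitochondrial membrane. The KHT group (4 libraries) received its KH and Tudor domains, the NEG group (5 libraries) was a negative control, and the IPT group (4 libraries) was the input RNA. A NEG library came from empty anti-MBP beads, from MBP or from KHT(GDDG), and the labels do not say which. GDDG is a change in the loop of a KH domain, known to weaken its binding to nucleic acid. All groups came from RNA of this cell line, and nothing in the labels says that libraries of a group came from separate cultures. The p-values below therefore measure the spread between libraries, which may be technical and, in NEG, may include differences between kinds of control.

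Levels are given as normalised read counts in CPM, counts scaled to library totals after correction by TMM, edgeR's factor for library composition. NEG 2 held 0 counts and was left out, so that each group had 4 libraries. The library totals lay between 1955446 and 3689792 in KHT, between 1162178 and 1618998 in NEG and between 2487679 and 3085423 in IPT. A set of 9 features took 96.0% to 98.1% of the counts in NEG, and the counts left for all other genes lay between 31318 and 49062 there, against 929348 to 2101632 in KHT. Of 10 Leydig cell markers none was at 0 over the input libraries, and their summed level was 351 to 652 CPM. The 7 Sertoli cell markers summed to 57.2 to 126.8 CPM in the input with 1 at 0, 3 germ cell markers to 1.88 to 3.73 CPM with 2 at 0, and 3 endothelial and macrophage markers to 12.1 to 27.8 CPM with none at 0.

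Promoter windows are shown first, because they describe the genes outside the counts, by head-to-head arrangement and by promoter elements. Windows of 300 bases, from 250 before to 50 after the start of a gene, came from RefSeq (GRCm38.p6) and matched 59 members. The first window below belongs to Hist1h2bg (H2bc8; chr13:23571150-23571449, plus strand), the H2B gene of highest input level among those whose window holds an octamer. The second belongs to Hist1h4d (H4c4; chr13:23581318-23581617, plus strand), the H4 gene of highest input level. Capitals mark the CCAAT box, the TATA box as the letters TATAAA, and the octamer ATTTGCAT, each on either strand, so that ATTGG marks a CCAAT box on the minus strand.
Hist1h2bg: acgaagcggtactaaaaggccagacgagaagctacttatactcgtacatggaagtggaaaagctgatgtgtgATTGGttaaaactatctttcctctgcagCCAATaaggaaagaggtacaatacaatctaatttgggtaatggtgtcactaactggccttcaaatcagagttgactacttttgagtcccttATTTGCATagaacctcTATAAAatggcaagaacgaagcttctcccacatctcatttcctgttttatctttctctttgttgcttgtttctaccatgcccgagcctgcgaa
Hist1h4d: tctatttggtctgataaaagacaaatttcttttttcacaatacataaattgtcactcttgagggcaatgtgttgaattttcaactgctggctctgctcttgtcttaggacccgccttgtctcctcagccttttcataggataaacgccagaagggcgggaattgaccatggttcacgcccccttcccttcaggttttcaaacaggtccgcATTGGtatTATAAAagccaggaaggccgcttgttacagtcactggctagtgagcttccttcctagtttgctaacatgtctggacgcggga

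CCAAT, the box bound by the factor NF-Y, stood in 50 of the 59 member windows (84.7%), against 37.4% of all 32851 promoter windows. All windows of H1, H2A, H2B and H3 genes held it, and 3 of 12 H4 windows did. The letters TATAAA were in 57.6% of member windows and 13.6% of all windows. The octamer, to which the factor Oct1 can bind, was in 7 of 17 H2A windows and 5 of 14 H2B windows but in none of those of H1, H3 or H4, against 1.74% of all windows. No motif contains another, but windows of head-to-head pairs cover part of the same DNA and share matches. The 8 such pairs found among the 59 members were all of 1 H2A and 1 H2B gene, with starts 164 to 249 bases apart. Of these pairs 2 held the octamer. Pairs with a member outside the 59 were not looked for, so the family may hold more. A match describes the letters of a window and was not tested as a binding site.

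In the input, the genes of highest level per length were H4 genes, though the class ranged widely. Levels per kilobase were set for 54 of the tested members, over the RefSeq gene length. Hist1h4d stood first at 242 ± 28.9 CPM per kilobase (SD, n = 4) and Hist1h4f (chromosome 13, 23551286 to 23551668) second at 218 ± 9.0 CPM per kilobase. The ranges of these neighbours overlapped, with 208.5 to 274.1 for Hist1h4d and 208.6 to 226.7 for Hist1h4f, while Hist1h4f lay above the third, Hist1h2bn, in every library (125.2 to 180.1). From the third gene down to Hist1h2ad, each gene's range overlapped that of the next, so that the order in between is not fixed by these libraries.

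Of the 8 genes with the highest level per kilobase, 6 were H4 genes, and the others were Hist1h2bn (163 ± 25.5) and the linker histone gene Hist1h1e (145 ± 12.1). Some H4 genes ranked low, among them Hist1h4i at 21.4 ± 5.5 CPM per kilobase (rank 44) and Hist4h4 at 13.8 ± 2.2 (rank 47). The highest H3 gene was Hist1h3h at 116 ± 27.4 CPM per kilobase. Among H2A genes, Hist2h2aa2 of the Hist2 cluster led with 90.9 ± 15.6 CPM per kilobase. The lowest ranked were Hist1h1t, the linker histone of spermatocytes, at 3.4 ± 1.5, and Hist2h2be, at 1.1 ± 0.2 over a RefSeq length of 2667 bases. Among head-to-head pairs, Hist1h2bg had 50.8 ± 4.81 CPM in the input and its H2A partner Hist1h2ae 7.56 ± 1.30 CPM, while Hist1h2bl (24.5 ± 4.43) and its partner Hist1h2ai (28.1 ± 2.42) lay within their spread. Genes of a class have near-identical copies, so the split of reads between them, and hence the order of single genes, is uncertain.

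**Figure D1:**
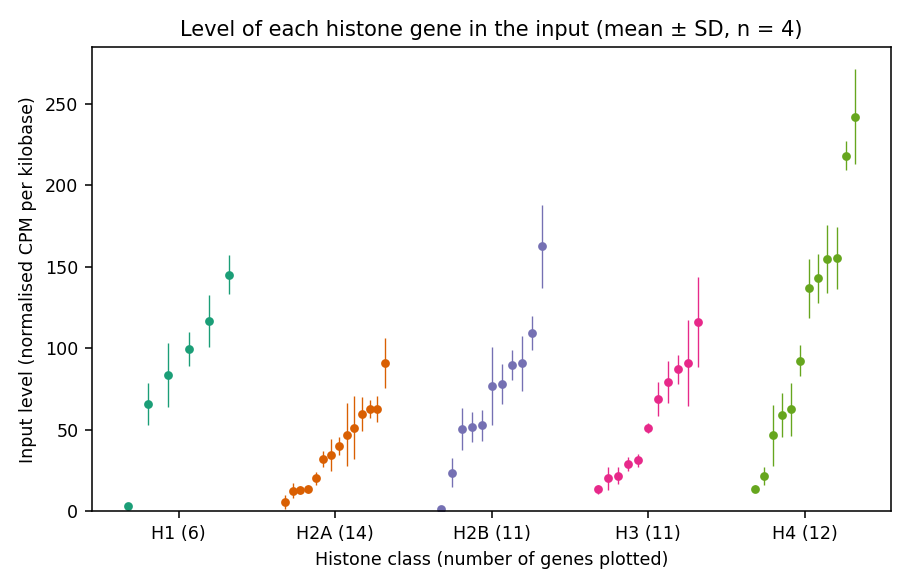
Level of each histone gene in the input, in normalised CPM per kilobase of RefSeq gene length, grouped by class with the number of genes plotted; points are means and bars the SD over 4 IPT libraries. The highest points are the H4 genes Hist1h4d (242) and Hist1h4f (218), and the lowest are Hist2h2be (1.1) and Hist1h1t (3.4).

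In the KHT libraries the summed histone level differed from that of the input by less than the spread between libraries. Summed over all 69 members, the level was 2304.8, 1859.6, 2147.1 and 2042.4 CPM in KHT 1 to 4 and 2016.2, 2276.6, 1983.8 and 2051.8 CPM in IPT 1 to 4. The groups overlapped, and the means of 2088 ± 187 and 2082 ± 133 CPM (SD, n = 4) stood at a ratio of 1.00. In NEG the sum was lower and uneven, with 63.7, 331.7, 508.7 and 1197.0 CPM in NEG 1, 3, 4 and 5. Each NEG library lay below each KHT and IPT library.

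By class, H1 summed to 387 ± 44.1 CPM in KHT and 391.9 ± 17.7 CPM in IPT, and H4 to 526 ± 26.2 and 549 ± 25.0 CPM. The H2B sum was 452 ± 47.0 CPM in KHT and 491 ± 62.6 CPM in IPT. H2A reached 364 ± 44.9 CPM in KHT and 322 ± 30.0 CPM in IPT, and H3 359 ± 60.6 and 329 ± 31.2 CPM. In each class the KHT and IPT libraries overlapped. NEG lay below KHT in every library for H1, H2A, H3 and H4, but for H2B the 428.9 CPM of NEG 5 exceeded the 383.8 CPM of KHT 2.

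**Figure D2:**
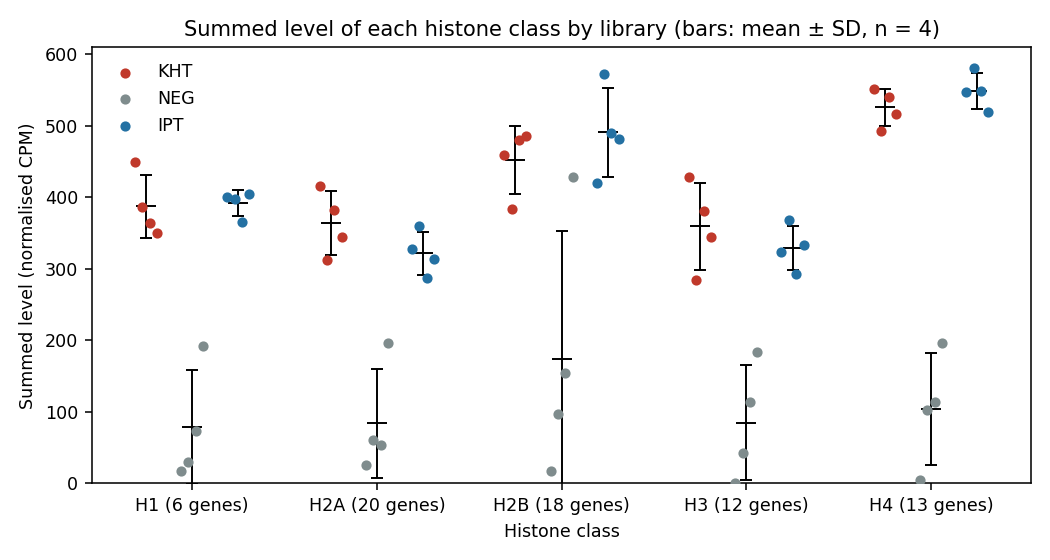
Summed normalised CPM of each histone class in every KHT, NEG and IPT library, with mean and SD over 4 libraries; NEG error bars that reach below 0 are cut at the axis. KHT and IPT points overlap in each class, and NEG points lie below them except the H2B sum of NEG 5.

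The shares of the classes among histone counts overlapped between KHT and IPT, except that of H2A. H2A genes held 18.05%, 16.8%, 17.8% and 16.9% of all member counts in KHT 1 to 4, and 16.2%, 15.8%, 14.5% and 15.3% in IPT 1 to 4. Every KHT library lay above every IPT library, at a mean of 17.4% ± 0.629 against 15.4% ± 0.753 (SD, n = 4). This was the only one of 5 classes whose shares did not overlap, it was singled out after the values were seen, and no test was made of it. H4 held 25.2% ± 1.05 in KHT and 26.4% ± 1.18 in IPT, H2B 21.68% ± 1.74 and 23.51% ± 1.94, H1 18.6% ± 1.86 and 18.9% ± 1.14, and H3 17.1% ± 1.40 and 15.8% ± 0.708.

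Gene by gene, no member passed the test between KHT and IPT in either direction. Of the 69 members, 60 passed the filter on low counts and were tested in edgeR's quasi-likelihood fit of all 3 groups, with Benjamini-Hochberg adjustment over 10714 genes and a threshold of 0.05. None of the 60 was called higher or lower, beside 0.00933% of all genes called higher (1 gene, Rpl38-ps2) and 0% called lower. At an unadjusted p under 0.05 the edgeR count was also 0 members, beside 175 of all genes, and DESeq2 and limma voom called 0 members in either direction. The median log2 fold change was 0.00 over the members and 0.01 over all genes. The libraries of the groups overlapped for each of the 60 genes, whereas KHT lay wholly above IPT in 0.84% and wholly below in 1.17% of all genes.

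A p above the threshold does not show equal levels, so the intervals matter. The 95% interval of the log2 fold change included 0 for all 60 genes, lay within 1 on either side of 0 for 27 and reached past it for the other 33. Over all genes 53.7% of the intervals lay within 1. A fit of KHT and IPT alone, whose spread does not draw on NEG, placed 53 of 61 members within 1 (86.9%, against 68.6% of all genes). There 2 intervals excluded 0, those of Hist1h2ab (0.51, interval 0.10 to 0.91) and Hist1h2ah (0.46, interval 0.07 to 0.85), and the smallest adjusted p in edgeR was 0.997.

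Across the 60 genes the log2 mean levels in KHT and IPT had a Pearson r of 0.984, against 0.948 over 10699 genes. This is a description across genes, which share their libraries and are not independent.

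**Figure D3:**
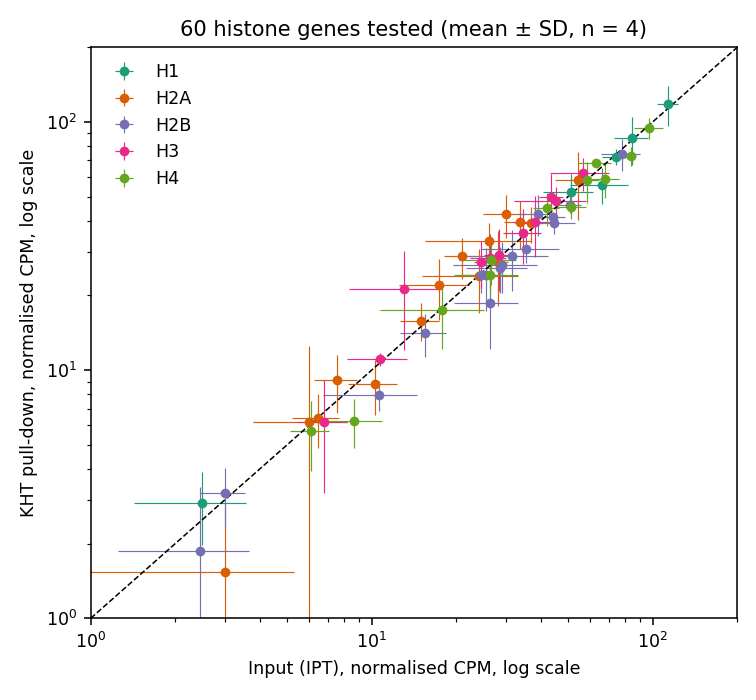
Mean normalised CPM of the 60 tested histone genes in the input (x) and in the KHT pull-down (y), both on log axes, with SD over 4 libraries and the line of equal levels; bars that reach below the axis are cut. Points of all 5 classes lie along the line from about Hist1h2ad at the low end to Hist1h1e at the high end, with Pearson r of 0.984 across genes.

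The members farthest from 0 differed by class. Hist2h3c2 (an H3 gene; chromosome 3, 96238479 to 96239127) read 34.5, 16.4, 19.2 and 14.4 CPM in KHT and 17.9, 14.2, 6.55 and 13.6 CPM in IPT, a log2 fold change of 0.70 with an interval of -0.04 to 1.44. KHT 1 was high among its 4 values, and the groups overlapped. Hist1h2ah (chromosome 13, 22035122 to 22035643) had 30.7, 29.9, 20.9 and 33.5 CPM in KHT and 22.5, 22.3, 22.2 and 16.7 CPM in IPT, a log2 fold change of 0.46 with an interval of -0.15 to 1.06. Only KHT 3 fell among the IPT values. Hist1h2ab, another H2A gene, stood at 0.50 with an interval of -0.43 to 1.43.

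On the other side stood Hist1h2ad, a sparsely counted H2A gene, with 1.54 ± 1.36 CPM in KHT and 3.01 ± 2.29 CPM in IPT and a log2 fold change of -0.96, interval -2.76 to 0.84. The H2B gene Hist1h2bh had 18.7 ± 6.502 CPM in KHT and 26.5 ± 6.77 CPM in IPT, a log2 fold change of -0.49 (interval -1.21 to 0.23). Another H2B gene, Hist1h2bf, stood at -0.41 (interval -1.09 to 0.26), and the H4 gene Hist1h4i at -0.45 (interval -1.08 to 0.18). Of all tested members, 57 of 60 were within 0.5 of it on the log2 scale, against 88.9% of all genes.

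Within these small values the classes leaned to different sides. The log2 fold change was above 0 in 30 of all 60 tested members, and its median over all genes was 0.01. By class it was above 0 in 11 of 15 H2A genes and 10 of 11 H3 genes, but in 2 of 16 H2B genes and 3 of 12 H4 genes. Class medians, less the all-gene median, were 0.08 for H2A, 0.09 for H3, -0.14 for H2B, -0.06 for H4 and 0.02 for H1. Over 18 alternative settings, 8 of which each leave out 1 KHT or IPT library, the H2A median ran from 0.03 to 0.21, that of H3 from 0.03 to 0.19, that of H2B from -0.18 to -0.03 and that of H4 from -0.16 to -0.01. The median of H1 took both signs. These settings refit the same libraries, so their agreement is no separate support, and the difference between classes against IPT was not tested. No single gene passed the test, and copies of a class share reads, so the genes of a class are not separate measurements.

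**Figure D4:**
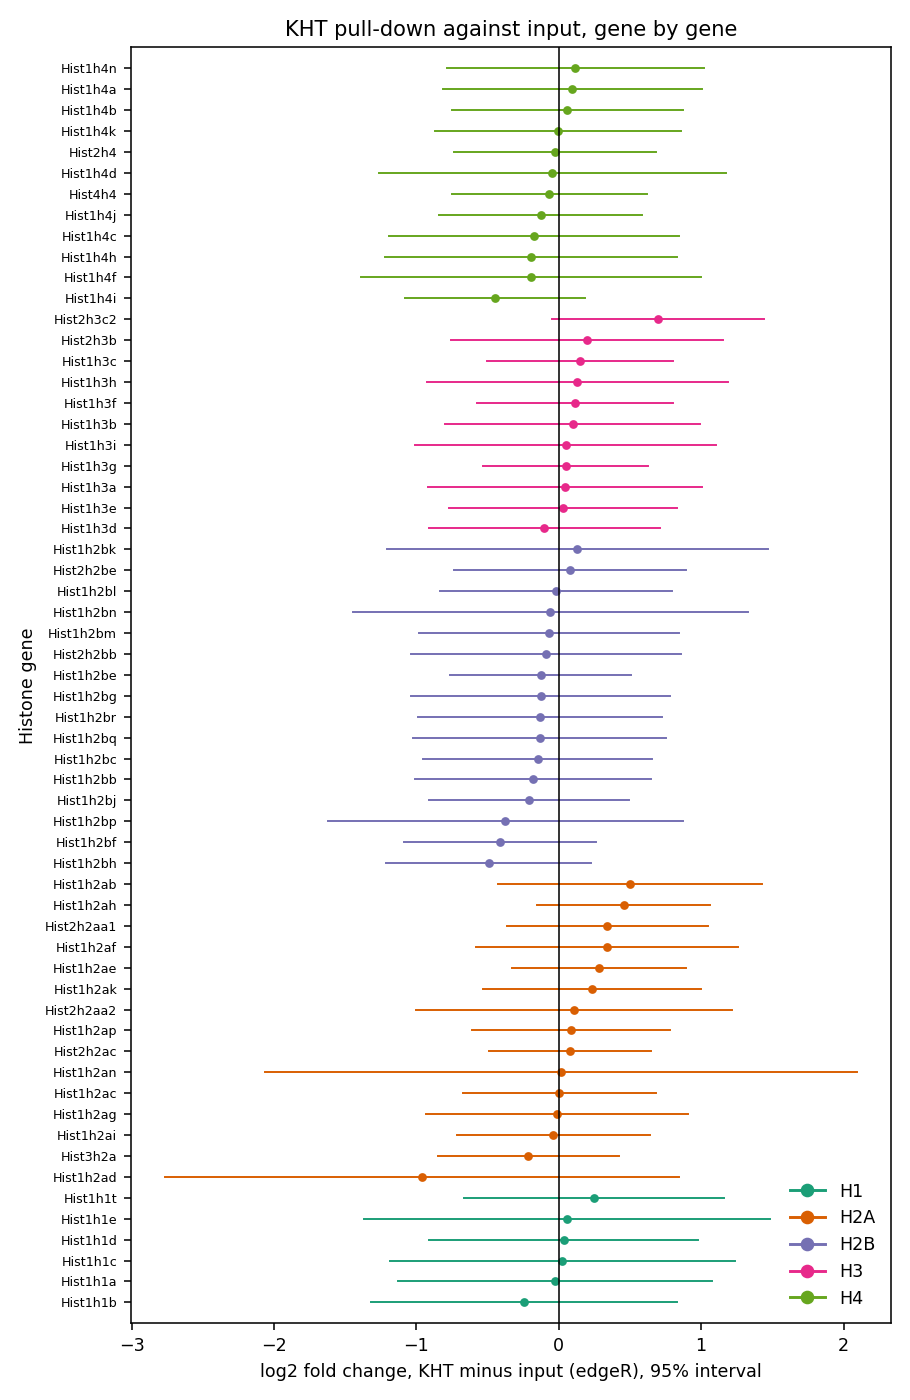
Log2 fold change of KHT minus input for each of the 60 tested histone genes with its 95% interval from edgeR, grouped by class. Every interval includes 0, H2A and H3 points lie mostly right of 0 and H2B and H4 points mostly left, and the widest interval belongs to the sparsely counted Hist1h2an.

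The NEG libraries held few histone counts, and 1 library held most of them. The 69 members had 15 counts in NEG 1, 55 in NEG 3, 76 in NEG 4 and 293 in NEG 5, 439 in all. NEG 5 thus gave 66.7% of these counts, while it held 31.8% of the NEG counts outside the 9 dominant features. Its number of members above 0 was 38, against 5, 17 and 17 in NEG 1, 3 and 4, and 17 members were above 0 in NEG 5 alone. Only Hist1h4d was above 0 in all 4 libraries, and the largest count of a member was the 22 of Hist1h2bn in NEG 5. Whether NEG 5 differs from the others by its bait was not tested, because the labels do not give the bait of a NEG library.

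Of all members, 22 were at 0 in every NEG library. A group count of 0 allows up to 3 counts, which is 3.77 CPM over the pooled NEG libraries, and 8 of the 22 did not exceed this floor in KHT. Pooled over libraries, the other 14 stood at least 1.48-fold to at least 18.1-fold higher in KHT. The lowest bound was that of Hist1h2an, with 7.09, 0, 2.94 and 14.7 CPM in KHT 1 to 4. KHT and NEG overlapped for this gene, which did not pass the test (edgeR adjusted p = 0.343). The limits for all 14, like the intervals of ratios below, reflect counting alone, and would be too narrow if both mates of a read pair were counted. They also depend on how reads were split between near-identical copies of a class.

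**Figure D5:**
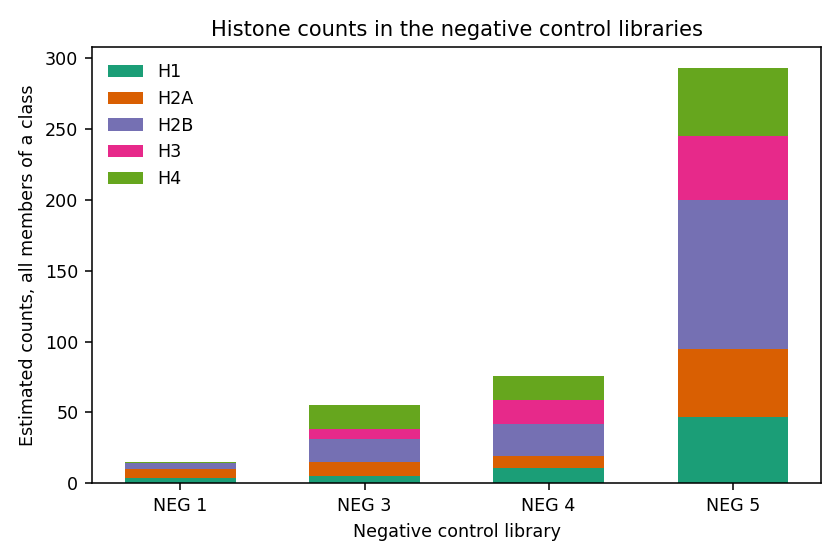
Deposited counts of all histone genes in the 4 NEG libraries with counts, stacked by class. The bars reach 15, 55, 76 and 293 counts, and the bar of NEG 5 is the tallest, with H2B as its largest part.

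Against NEG, 33 of the 60 tested members (55%) were higher in KHT and none was lower by edgeR, beside 31.0% of all tested genes called higher and 2.72% called lower. A gene at 0 in NEG could pass the filter through KHT and IPT, for members as for other genes, so the count is read only against that background. DESeq2 called 43 members higher, beside 37.2% of all genes, and limma voom 35, beside 32.7%, and both called 0 members lower. Of the pair of members with a fitted value below 0, Hist1h2af had an unadjusted p of 0.787 and Hist1h2bp one of 0.236. KHT lay above NEG in every library for 35 of 60 members, beside 45.8% of all genes, and below it in every library for none, beside 1.02%.

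The median log2 fold change of the members was 2.32, beside 1.73 over all genes, and with genes at 0 in NEG set to their bound it was 1.81 over 57 members, beside 1.12 over 9447 genes. Both depend on the scaling: by total counts alone the median was 6.22 for members and 5.66 for all genes, and all 60 members were called higher with 97.3% of all genes. Without NEG 5 the calls were 48 of 61, with 47.2% of all genes called higher. NEG against IPT gave 35 of 60 members lower in NEG (32.5% of all genes) and 0 higher (3.64% of all genes). KHT and IPT were each compared with the same NEG libraries, so these counts are not independent.

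Called higher in KHT than NEG were 9 of 12 H4, 4 of 6 H1, 7 of 11 H3 and 9 of 15 H2A genes. Of H2B genes 4 of 16 (25%) were, below the 31.0% of all genes. By cluster the calls were 26 of 50 in Hist1, 6 of 8 in Hist2, 0 of 1 in Hist3 and 1 of 1 in Hist4. The difference between classes was not tested.

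Among H4 genes, Hist1h4n (chromosome 13, 21831792 to 21832197) had 70.6, 68.9, 66.4 and 67.1 CPM in KHT, 0 in the 4 NEG libraries and 75.4, 57.5, 60.9 and 57.9 CPM in IPT. Its KHT level was at least 18.1-fold that of NEG (edgeR adjusted p = 0.000585), the highest bound of any member. Hist1h4k (chromosome 13, 21750145 to 21750553) was likewise at 0 in NEG and read 56.2, 60.96, 71.2 and 44.7 CPM in KHT, at least 16.0-fold higher (edgeR adjusted p = 0.000695). Both encode core histone H4, and their IPT means of 62.9 ± 8.46 and 58.4 ± 6.10 CPM (SD, n = 4) came from libraries whose range overlapped that of KHT.

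Hist1h4h had its 3 NEG counts in NEG 4 and 55.4, 47.5, 67.8 and 65.1 CPM in KHT, a ratio of 15.9 with a counting interval of 5.43 to 77.2 (edgeR adjusted p = 0.00435). Hist1h4f rose from 0, 0, 0 and 28.6 CPM in NEG to 82.4, 71.2, 68.9 and 68.8 CPM in KHT (log2 fold change 3.12, SE 0.80, edgeR adjusted p = 0.00908). KHT and NEG did not overlap for either gene. Hist1h4d, the most abundant member per length, did not pass: it read 88.7, 84.9, 105 and 99.1 CPM in KHT but 4.24, 66.3, 13.4 and 53.1 CPM in NEG (log2 fold change 1.46, SE 0.66, edgeR adjusted p = 0.0850). Without NEG 5 it passed, with an edgeR adjusted p of 0.0163, and over 18 alternatives its adjusted p ran from 1.2e-06 to 0.276.

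The H4 gene of lowest level that passed was Hist4h4, outside the main clusters (chromosome 6, 136803993 to 136804431), with 6.56, 3.20, 7.34 and 5.71 CPM in KHT and 0 in NEG, at least 1.62-fold higher (edgeR adjusted p = 0.0224; 0.0541 without NEG 1 and 0.0693 with halved values). Hist1h4i was similar, at least 1.71-fold higher (edgeR adjusted p = 0.0188; 0.0642 with halved values). Halved values allow for both mates of a pair having been counted. Hist2h4 passed narrowly with 25.2, 12.8, 16.0 and 15.9 CPM in KHT and 3 counts in NEG 5 (edgeR adjusted p = 0.0448). That call was lost in 11 of 18 alternatives, among them those without KHT 1 (0.0774), KHT 3 (0.0554), KHT 4 (0.0512), NEG 1 (0.151), NEG 3 (0.108) or NEG 4 (0.102).

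Among the linker histones, Hist1h1a (chromosome 13, 23763668 to 23764412) had 79.2, 69.9, 74.7 and 66.6 CPM in KHT and 0, 0, 0 and 20.4 CPM in NEG. It was higher in KHT by a log2 fold change of 3.58 (SE 0.79, edgeR adjusted p = 0.00484), and the groups did not overlap. Hist1h1e (chromosome 13, 23621777 to 23622558), the H1 gene of highest input level, had 149, 118, 103 and 102 CPM in KHT and 0, 12.1, 0 and 57.2 CPM in NEG (log2 fold change 2.66, SE 0.82, edgeR adjusted p = 0.0206; 0.0512 without NEG 3 and 0.0560 in KHT and NEG alone). In IPT these genes stood at 74.1 ± 7.81 and 113 ± 9.44 CPM, within the spread of KHT.

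Hist1h1c, another abundant H1 gene, passed with a log2 fold change of 1.95 (SE 0.70, edgeR adjusted p = 0.0373). Its call was lost in 10 of 18 alternatives, without KHT 1 (0.0781), KHT 2 (0.0592), KHT 3 (0.0625), KHT 4 (0.0521), NEG 3 (0.0853) or NEG 4 (0.0567) among them. Hist1h1b did not pass (log2 fold change 1.63, SE 0.66, edgeR adjusted p = 0.0598), but did without NEG 4 (0.0365) or NEG 5 (0.0187). The spermatocyte gene Hist1h1t had 3.02, 1.60, 3.84 and 3.23 CPM in KHT, 0 in NEG and 2.50 ± 1.07 CPM in IPT, under the floor of the NEG group.

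Of the H3 genes, Hist1h3b (chromosome 13, 23752345 to 23752840) had 56.6, 41.6, 45.1 and 49.9 CPM in KHT and 3 counts in NEG, all in NEG 3. The ratio was 12.9 with a counting interval of 4.41 to 62.8 (edgeR adjusted p = 0.00468). Hist1h3c, with 22.8, 28.3, 35.0 and 22.6 CPM in KHT and 2 NEG counts, gave a ratio of 11.2 (interval 3.08 to 92.5, edgeR adjusted p = 0.00564). For both, every KHT library lay above every NEG library, and the IPT means of 45.2 ± 13.02 and 24.6 ± 1.42 CPM were near those of KHT.

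Hist1h3h, the highest H3 gene of the input, had 66.6, 49.3, 71.3 and 61.1 CPM in KHT and 24.5 CPM in NEG 5 alone (log2 fold change 3.09, SE 0.76, edgeR adjusted p = 0.00762). In the Hist2 cluster, Hist2h3b passed with a log2 fold change of 2.03 (SE 0.66, edgeR adjusted p = 0.0248), which was lost without NEG 1 (0.0595), NEG 3 (0.0534) or NEG 4 (0.0629) and in KHT and NEG alone (0.0791). Hist2h3c2, the member with the highest value against the input, had 2 NEG counts in NEG 4, a ratio of 9.003 and a counting interval of 2.48 to 74.5 (edgeR adjusted p = 0.0203). Its call was lost without NEG 1 (0.0827) or NEG 3 (0.0569).

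The H2A genes held 7 of the 14 members with a bound above 1, among them Hist1h2an, which did not pass the test. Hist1h2ap, whose symbol was not matched to a single RefSeq entry and is given without coordinates, had 42.0, 29.2, 42.5 and 42.5 CPM in KHT and 0 in NEG, at least 10.6-fold higher (edgeR adjusted p = 0.00102). The Hist2 gene Hist2h2aa1 (chromosome 3, 96245497 to 96246052) had 26.3, 40.4, 31.3 and 35.0 CPM in KHT and 0 in NEG, at least 8.48-fold higher (edgeR adjusted p = 0.00256). Hist1h2ai was at least 7.74-fold higher, Hist1h2ah at least 7.30-fold (edgeR adjusted p = 0.00187) and Hist2h2ac at least 4.16-fold (edgeR adjusted p = 0.00391).

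Hist2h2aa2, the H2A gene of highest input level, had 80.9, 42.0, 63.7 and 46.2 CPM in KHT and 36.2 CPM in NEG 3 alone (log2 fold change 2.88, SE 0.81, edgeR adjusted p = 0.0136). Hist1h2ak passed with 51.1, 31.3, 41.1 and 34.8 CPM in KHT and 5.59 ± 7.71 CPM in NEG (log2 fold change 2.67, SE 0.66, edgeR adjusted p = 0.00764). Hist3h2a, the single tested gene of the Hist3 cluster, did not: it had 8.66, 5.71, 10.4 and 10.4 CPM in KHT and 2 counts in NEG 5, a ratio of 3.60 with an interval of 0.985 to 29.9 (edgeR adjusted p = 0.0962; 0.00867 without NEG 5).

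H2B was the class with the most NEG counts in NEG 5. Hist1h2bj (chromosome 13, 22043198 to 22043658) stood out within it, with 29.8, 26.0, 32.5 and 34.5 CPM in KHT and 0 in NEG, at least 8.19-fold higher (edgeR adjusted p = 0.00252). Hist1h2bg, whose promoter is shown above, had 50.02, 42.0, 48.8 and 45.2 CPM in KHT and 0, 0, 26.8 and 12.3 CPM in NEG (log2 fold change 2.37, SE 0.67, edgeR adjusted p = 0.0140). Hist1h2bb gave a log2 fold change of 2.36 (SE 0.66, edgeR adjusted p = 0.0133). In a fit of KHT and NEG alone, the calls of Hist1h2bg (0.0548) and Hist1h2bb (0.0522) were lost. Hist1h2bf was at least 2.09-fold higher (edgeR adjusted p = 0.0204; 0.0570 without NEG 1 and 0.0613 with halved values).

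The most abundant H2B gene, Hist1h2bn (chromosome 13, 21754076 to 21754553), did not pass. It had 80.9, 58.2, 81.4 and 77.5 CPM in KHT, 59.9, 86.1, 84.7 and 80.2 CPM in IPT and 0, 18.1, 0 and 89.9 CPM in NEG, so that NEG 5 lay above every KHT library (log2 fold change 1.37, SE 0.77, edgeR adjusted p = 0.153). Without NEG 5 it passed (0.000936), as did Hist1h2bh (0.0889 with it and 0.0448 without it) and Hist2h2bb of the Hist2 cluster (0.0703 and 0.000910). Hist2h2be had 3.19 ± 0.850 CPM in KHT and 0 in NEG, under the floor.

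The 5 tested H2B genes with several RefSeq transcripts, a grouping made after the values were seen, were Hist1h2bc, Hist1h2be, Hist1h2bp, Hist1h2bq and Hist1h2br. Their gene spans were 3788 to 37455 bases, longer than those of the 11 others (448 to 2667). None of the 5 was called higher in KHT than in NEG and 4 of the 11 were, beside 31.0% of all genes, so that neither count is read as a result. The log2 fold changes of the 5 were between -1.38 and 1.92 with a median of 0.17, and those of the 11 had a median of 1.58. They had 57 counts in NEG and none was at 0 there, while the 11 had 91 counts and 3 at 0. The deposited table gives 1 value a gene, so counts of single transcripts were not analysed here.

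The Hist1 cluster has separate stretches on chromosome 13. The 23 members of the stretch that holds Hist1h4n, Hist1h2bn and Hist1h2ah summed to 695 ± 54.9 CPM in KHT, 696 ± 66.4 CPM in IPT and 207 ± 212 CPM in NEG. The 30 members of the stretch that holds Hist1h4d, Hist1h1e and Hist1h3b summed to 1095 ± 96.4, 1112 ± 54.0 and 262 ± 238 CPM. The Hist2 cluster summed to 242 ± 39.0 CPM in KHT, 219 ± 25.2 CPM in IPT and 39.9 ± 40.1 CPM in NEG. KHT and IPT libraries overlapped in all 3 sums, and NEG lay below KHT in every library.

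The 9 members that did not pass the filter were all sparse. The highest count in any library was 18, for Hist3h2bb-ps in IPT 1. Hist1h2aa, a testis H2A gene, had 1 count in IPT 1 and 0 elsewhere, and its partner Hist1h2ba was not analysed here. Hist1h4m had 14 and 13 counts in KHT 1 and 2, 5 in NEG 5 and 0 in IPT. Hist1h2al had 6, 0, 2 and 4 counts in NEG, the only untested member above 0 in more than 1 NEG library.

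The genes listed as replication-independent variants did not follow 1 course in the NEG libraries. H2afz, the H2A.Z gene, had 293, 323, 227 and 28 counts in NEG 1, 3, 4 and 5, H3f3b had 83, 107, 70 and 20, and H3f3a, also for H3.3, had 59, 78, 66 and 28, so that NEG 5 was the lowest for each. For H2afx (7 counts in NEG 5), H2afj (6), H2afy (2) and Cenpa (4) it was the highest, as for many replication-dependent genes. Of 9 variants tested, the call against NEG was higher in KHT for 3 (H2afx, H2afy and H1f0) and lower for 2, beside 31.0% and 2.72% of all genes, and 0 were called either way against IPT.

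The variants called lower were H2afz, with a log2 fold change of -2.79 in KHT against NEG (edgeR adjusted p = 0.0194), and H3f3a, with -1.83 (0.0368), but the signs turned with total counts alone, to 1.35 and 2.32. The H2afz call was lost without KHT 1 (0.0635) or KHT 3 (0.0566), in KHT and NEG alone (0.0674) and with no filter on low counts (0.0960). That of H3f3a was lost without any 1 of the KHT libraries (0.0739 to 0.105), without NEG 3 (0.0706) or NEG 4 (0.0613), in KHT and NEG alone (0.179), with no filter on low counts (0.230) and against a 1.5-fold change (0.0619).

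Slbp, which encodes the stem-loop binding protein, had 313, 125, 334 and 173 counts in KHT, 276, 294, 300 and 323 in IPT and 0, 0, 0 and 6 in NEG. Its level was 37.6 ± 6.41 CPM in KHT and 37.3 ± 6.98 CPM in IPT, and it was higher in KHT than in NEG (log2 fold change 2.35, edgeR adjusted p = 0.0180; 0.0569 without NEG 1 and 0.0501 without NEG 3). Of 36 tested genes of histone messenger RNA processing, translation and decay, 15 passed as higher in KHT and 1 as lower against NEG (median 1.43, beside 31.0% and 2.72% of all genes called). Of 24 histone chaperone genes, 6 were higher (25%, below the share of all genes) and 0 lower (median 1.47). Of 32 S phase genes, 14 were higher and 1 lower (median 1.87, beside 1.73 over all genes). In each of these lists edgeR called 0 genes between KHT and IPT, with 0 at an unadjusted p under 0.05.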

How the data were processed

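RNA sequencing of 4 KHT, 5 NEG and 4 IPT libraries was used. Per the labels' protocols, a kit for stranded libraries of total RNA removed ribosomal RNA. The labels' molecule field names polyA RNA instead, and which holds was not settled. The authors deposited 1 table of estimated counts (expected counts, unscaled) per gene, and kallisto and DESeq2 with GRCm38 and mm10 are named in the submitters' processing notes. The step from transcripts to genes: not given in the sources used here. All values were whole. The value 2 was more frequent than 1, as when both mates of a pair are counted, and this was not settled. Libraries were grouped by title, since the description of the KHT samples speaks of negative controls.

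Symbols were found for 27004 of 27071 identifiers, and 68 of 69 members matched 1 RefSeq entry. The main test was edgeR 4.0.16 (R 4.3.3; TMM, filterByExpr, robust quasi-likelihood) in 1 fit of the 12 libraries with counts, two-sided, adjusted over 10714 genes. Alternatives used limma 3.58.1, DESeq2 1.42.0, other scalings, filters and left-out libraries. The fits were also run on simulated counts, drawn independently for each gene, without shared reads or different kinds of control. Replicate numbers were not taken to pair the libraries. Named were, in each class, the 3 members highest in IPT and the 2 of smallest p in KHT with IPT and with NEG, then every tested member of Hist2, Hist3 and Hist4, members called lower, testis members and Slbp. Members, lists and rules were chosen with earlier results of these data known. Lists of histone messenger RNA processing, variants, chaperones, S phase genes and markers of Leydig, Sertoli, germ, endothelial and macrophage cells were counted by their calls.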

Additional observations from a re-analysis of the deposited data

Results flagged for a closer look

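A library was marked where its gap to the nearest of the other 3 was larger, as a share of its group's range, than Dixon's 95% critical value for 4 samples. This was so in 15 of 108 groups of named genes. Chance marks about 1 in 20 groups of normally spread values. That rate does not hold for sparse groups, where any count beside 3 libraries at 0 is marked. In NEG, 10 groups were marked because 1 library had counts and the other 3 had 0. NEG 5 was that library for Hist1h1a (20.4 CPM), Hist1h3h (24.5 CPM), Hist1h4f (28.6 CPM), Hist3h2a (8.17 CPM) and Hist2h4 (12.3 CPM). NEG 3 was it for Hist2h2aa2 (36.2 CPM), Hist1h3b (18.1 CPM) and Hist1h3c (12.1 CPM), and NEG 4 for Hist2h3c2 (13.4 CPM) and Hist1h4h (20.1 CPM).

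In KHT, library 2 was low for Hist1h2ap (29.2 CPM, next 42.0) and Hist1h2bn (58.2 CPM, next 77.5). In IPT, library 2 was high for Hist1h3h (76.7 CPM, next 51.8), library 4 was low for Hist1h2ah (16.7 CPM, next 22.2) and library 1 alone had Hist1h2aa, at 0.107 CPM.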

How the results depend on the processing

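Leaving out 1 library at a time moved the members called higher in KHT than in NEG between 24 and 48 (33 with all libraries), and those lower in NEG than in IPT between 26 and 47 (35 with all). Both were highest without NEG 5. Members higher in NEG than in IPT ran from 0 to 1, the one being Hist1h4m without NEG 1, NEG 3 or NEG 4. With total counts and no scaling factors, 60 members were called higher in KHT than in NEG and 60 lower in NEG than in IPT. With no filter on low counts, 3 members were lower in KHT than in NEG (Hist1h2aj, Hist1h2al, Hist1h2ao), 1 was higher in KHT than in IPT (Hist1h4m) and 3 were higher in NEG than in IPT (Hist1h2al, Hist1h2ao, Hist1h4m). The other alternatives kept each count within 1.5 times.

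Same-numbered libraries correlated from -0.33 to 0.22 in their deviations, over 0.1 in 3 of 10 pairs, beside 12 of 38 other pairs. The 3 were KHT with IPT of numbers 1, 3 and 4 (0.21, 0.22 and 0.12), while KHT 2 with IPT 2 gave -0.33. The numbers were not taken to pair the libraries. Sparse counts in NEG could hide a pairing, so this was not settled. With the replicate block, 47 members were higher in KHT than in NEG, 47 lower in NEG than in IPT and 0 called between KHT and IPT. Number 5 occurs only in NEG, so the block in effect left NEG 5 out of both comparisons with NEG. Without NEG 5 and with no block, the counts were 48 and 47. The rise from 33 and 35 is therefore no measure of pairing. Of 4 KHT libraries, 1 correlated best with the IPT library of its own number.

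Named members lost their KHT with NEG call in 36 of 601 refits and gained it in 27, with 0 reversals. Against IPT none was called in any setting, with a smallest adjusted p of 0.849. Depth limits the NEG side, where most members had under 10 counts.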
